A study of Mus musculus with 8 samples.

Results

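Gene expression was compared between the dopaminergic cells that remain in the substantia nigra pars compacta (SNc) of newborn mice lacking Pitx3 and the dopaminergic cells of the wild-type ventral tegmental area (VTA), to ask how close in expression the spared SNc cells are to VTA cells. The 2 arrays of SNc KO (genotype Pitx3-/-;Th-EGFP+/-) were set against the 2 arrays of VTA WT (genotype Pitx3+/+;Th-EGFP+/-). The 2 arrays of SNc WT, of the VTA WT genotype, and the 2 of VTA KO, of the SNc KO genotype, are given beside them. All 4 groups share the Th-EGFP+/- transgene, the C57Bl/6 strain (a C57Bl/6J background in the study's methods) and an age of P1 to P4. The measured items were the probesets of an Affymetrix Mouse Gene 1.0 ST array that carry 1 gene symbol and whose group mean reached a linear signal of 60 in SNc KO or VTA WT. These were 14311 of the 35512 probesets on the array, for 12937 genes. Of them, 12896 reached the minimum in both groups, 290 in SNc KO alone and 1125 in VTA WT alone.

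Live EGFP+ cells were sorted after dissection of the lateral (SNc) and medial (VTA) parts of the ventral midbrain, stored batches were pooled, and RNA was amplified before hybridization. EGFP was driven by the Th promoter, which is active in catecholaminergic cells, so a cell was sorted by this transgene and not by Pitx3 or by position within the SNc. By the design of the study, Pitx3-positive neurons are gone from the SNc of Pitx3-/- pups, which keeps the Pitx3-negative neurons of its dorsal part. The VTA WT preparation mixes Pitx3-positive and Pitx3-negative neurons. The study's methods describe 1 cell preparation for each group, with RNA purified and hybridized in duplicate, and name no separate animals for the 2 arrays. The p-values therefore reflect only how far these arrays varied, which may be technical variation. SNc KO and VTA WT differ in region and in genotype at once, and the effects of region and genotype cannot be told apart in this comparison.

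Midbrain dopaminergic neurons share the enzymes and transporters of dopamine but fall into subtypes. The homeodomain factor Pitx3 is needed for the survival of the ventral SNc neurons that degenerate in Parkinson disease, whereas many VTA and dorsal SNc neurons, which hold the calcium buffer calbindin, are more resistant. The homeodomain factor Otx2 marks VTA neurons, and Sox6 and the retinaldehyde dehydrogenase Aldh1a1 mark neurons of the ventral SNc and, for Aldh1a1, part of the VTA.

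The sorted cells carried the transcripts of dopaminergic neurons at high log2 signal in every array. Th, tyrosine hydroxylase, read 10.17 and 10.10 in VTA WT and 10.01 and 10.17 in SNc KO. Ddc, which converts L-DOPA to dopamine, read 10.20 and 10.22 in VTA WT and 9.998 and 10.22 in SNc KO. The orphan nuclear receptor Nr4a2 read 10.20 and 10.23 in VTA WT and 10.09 and 10.14 in SNc KO. The arrays of the groups overlapped for Th and Ddc, and the 95% intervals of the log2 difference, SNc KO minus VTA WT, were -0.38 to 0.29 for Th, -0.41 to 0.21 for Ddc and -0.33 to 0.14 for Nr4a2. Signals of the vesicular transporter Slc18a2, the plasma membrane transporter Slc6a3 and the autoreceptor Drd2 lay lower in both SNc KO arrays than in both VTA WT arrays, with log2 differences of -0.36, -0.40 and -0.52, and none of the 3 passed the test (adjusted p of 0.258, 0.215 and 0.0924). Of 12 measured genes of dopamine synthesis, storage, uptake and breakdown and of 15 measured transcription factors of midbrain dopaminergic neurons, 0 passed, with a median log2 difference of -0.06 in each list. Pitx3 itself read 8.10 and 7.84 in VTA WT, 7.72 and 7.63 in SNc WT, 8.08 and 7.92 in VTA KO and 7.87 and 7.94 in SNc KO. Its signal therefore did not drop in the KO arrays, which read between the extremes of the wild-type arrays, and it checks no label here, since the sources used do not give which part of the gene was deleted and which part the probes cover.

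The label of a dorsal remnant of the SNc was set beside markers in SNc KO and SNc WT. Sox6 and Aldh1a1, of the ventral tier, were lower in SNc KO (-1.41, adjusted p = 0.0253, and -2.81, adjusted p = 0.0125), and Calb1 read higher by 0.90 without passing (adjusted p = 0.154). The study describes Aldh1a1 as a target gene of Pitx3. In VTA KO, where the study describes the neurons as intact at birth, it also read lower than in VTA WT (-1.65, adjusted p = 0.0827). The fall of Aldh1a1 therefore cannot show which cells remain in SNc KO. Otx2, which marks the VTA, was also higher in SNc KO than in SNc WT (2.13, adjusted p = 0.0375).

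Over the 22112 probesets tested, SNc KO arrays stood about as far from VTA WT arrays as SNc WT arrays did. The standard deviation of the log2 difference over all probesets was 0.474 to 0.500 in the 4 pairs of a SNc KO and a VTA WT array and 0.471 to 0.498 in the 4 pairs of a SNc WT and a VTA WT array. It was 0.385 to 0.432 between SNc KO and SNc WT arrays, 0.357 between the SNc KO arrays and 0.341 between the VTA WT arrays. All pairs of a SNc KO and a VTA WT array were thus further apart than all pairs of a SNc KO and a SNc WT array. The 4 pairs of a VTA KO and a VTA WT array, of the same region, gave 0.470 to 0.484. This range overlapped that of SNc KO and VTA WT. The VTA KO arrays lay further from each other (0.532) than from any VTA WT array. The overlap therefore cannot rank SNc KO and VTA KO by closeness to VTA WT. Pairs of a VTA KO and a SNc KO array gave 0.464 to 0.596. Leaving out the 131 probesets of listed glial, ciliated, vascular, immune and blood cell markers gave 0.462 to 0.484 for SNc KO and VTA WT, 0.457 to 0.479 for SNc WT and VTA WT, and 0.383 to 0.431 for SNc KO and SNc WT. The 2 VTA KO arrays differed from each other by 0.532, more than the arrays of any other group. Array medians were 6.11 to 6.24 on the log2 scale, and 55.0% to 58.9% of probesets reached the minimum in an array.

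**Figure D1:**
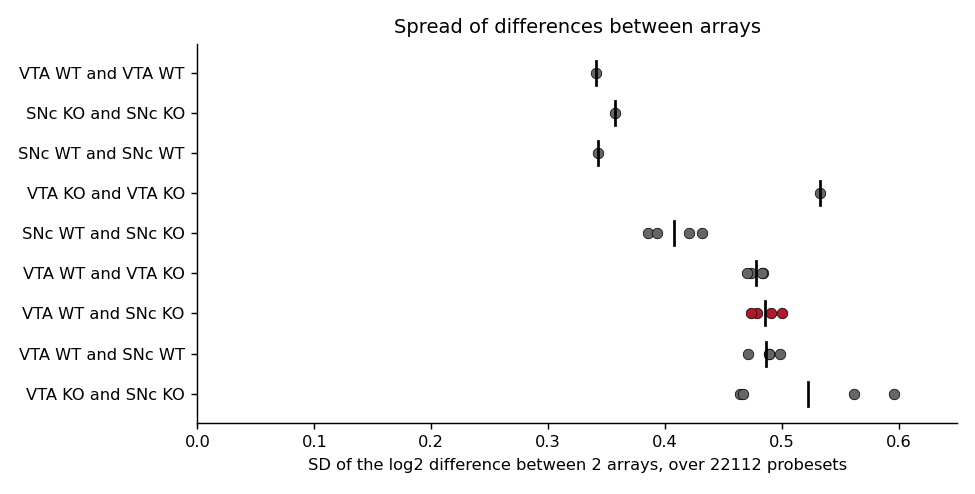
Each point is a pair of arrays, the horizontal axis is the standard deviation of their log2 difference over 22112 probesets, and the vertical bars are the means of the pairs. The pairs of VTA WT and SNc KO (red) lie at 0.474 to 0.500, level with the pairs of VTA WT and SNc WT. They overlap the pairs of VTA WT and VTA KO (0.470 to 0.484) and lie above the pairs of SNc WT and SNc KO.

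In SNc KO against VTA WT, limma called 48 probesets higher and 80 lower at an adjusted p under 0.05, or 0.217% and 0.362% of those tested. Among the probesets with 1 symbol these were 41 higher and 75 lower, which stand for 40 and 69 genes. Of the 75 lower probesets, 48 reached the signal minimum in VTA WT and not in SNc KO, whereas 3 of the 41 higher probesets reached it in SNc KO and not in VTA WT. For these 48 and these 3, the filter fixed the direction of the difference. The smallest called difference was 0.78 on the log2 scale, 1.72-fold, and the 2 arrays of SNc KO lay wholly above or wholly below the 2 of VTA WT for all 116. With 2 arrays a side such separation was common, since 30.7% of all tested probesets were higher and 27% lower without overlap. Before adjustment 3874 probesets had a p under 0.05. The count rested on every array of the 2 groups, as leaving out either SNc KO array or either VTA WT array left 0 calls (2330 to 2783 probesets at an unadjusted p under 0.05), leaving out either SNc WT array left 3, and leaving out either VTA KO array gave 428. When array medians were subtracted first, the calls were 79 higher and 81 lower, so that 49.4% of them were higher instead of 37.5%.

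Several markers that read higher in VTA WT than in SNc WT had VTA-like levels in SNc KO. Otx2 read 7.76 and 7.79 in VTA WT, 8.03 and 8.10 in SNc KO, 8.41 and 8.65 in VTA KO and 6.25 and 5.62 in SNc WT. Both SNc KO arrays lay a little above both VTA WT arrays and far above both SNc WT arrays. The log2 difference of SNc KO from VTA WT was 0.29 (95% interval -0.22 to 0.80), whereas that of SNc WT from VTA WT was -1.84 with an adjusted p of 0.0277. Cck, which encodes the peptide cholecystokinin, read 7.87 and 7.96 in VTA WT, 7.83 and 7.97 in SNc KO and 6.76 and 6.47 in SNc WT. Its arrays overlapped between SNc KO and VTA WT, with a difference of -0.01 (-0.38 to 0.35), against -1.30 for SNc WT (adjusted p = 0.0286). Calb1, the gene of calbindin, read 10.12 and 9.99 in VTA WT, 10.04 and 10.44 in SNc KO and 9.40 and 9.28 in SNc WT, and here too the first 2 groups overlapped. The vesicular glutamate transporter Slc17a6 read 9.68 and 9.90 in VTA WT, 10.04 and 9.96 in SNc KO and 9.06 and 8.78 in SNc WT. For Calb1, Slc17a6 and the related calcium-binding protein Calb2, the intervals of the difference from VTA WT were -0.19 to 0.56, -0.15 to 0.57 and -0.10 to 0.63, while the differences of SNc WT from VTA WT were -0.71, -0.87 and -0.71 and did not pass (adjusted p of 0.107, 0.0747 and 0.107). An interval that spans 0 with 2 arrays a side does not show that the levels were equal.

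Other markers of the VTA were low in SNc KO. Neurod6, a basic helix-loop-helix factor of a VTA subset, read 8.20 and 8.45 in VTA WT and 4.70 and 5.38 in SNc KO, with 5.54 and 5.45 in SNc WT. It lay over the signal minimum in both VTA WT arrays and under it, at log2 values below 5.91, in both SNc KO arrays, and the difference was -3.28 ± 0.27 (SE, adjusted p = 0.0133). Lpl, lipoprotein lipase, read 7.29 and 7.91 in VTA WT and 6.10 and 5.63 in SNc KO. The difference was -1.74 ± 0.24 (adjusted p = 0.0477). The SNc KO means of Neurod6 (5.04) and Lpl (5.86) were under the minimum, so both genes were measured only through VTA WT. For both, the filter fixed the direction of the difference. Grp, gastrin-releasing peptide, read 9.91 and 9.97 in VTA WT, 8.64 and 8.82 in SNc KO and 8.22 and 8.27 in SNc WT, so that SNc KO lay between the wild-type regions (difference from VTA WT -1.21 ± 0.11, adjusted p = 0.0174). Car4, a membrane-anchored carbonic anhydrase, read 8.06 and 8.02 in VTA WT and 6.70 and 6.73 in SNc KO. The difference was -1.32 ± 0.15 (adjusted p = 0.0272). These 4 genes also read lower in VTA KO than in VTA WT without passing, with differences of -2.40 for Neurod6, -1.32 for Lpl, -0.88 for Grp and -1.73 for Car4, with adjusted p-values of 0.0841, 0.19, 0.119 and 0.0513. Within Pitx3-/- the difference of SNc KO from VTA KO was -0.88, -0.42, -0.33 and 0.40 in the same order, and none passed (adjusted p of 0.205, 0.394, 0.222 and 0.245). Of the 18 measured genes of the VTA marker list, 1 was called higher (Nts, described with the peptides) and 4 lower. Over all probesets tested, 0.217% were called higher and 0.362% lower. Neurod6 and Lpl, among the lower ones, were measured only through VTA WT. The median difference of the list was -0.02, against 0.02 over all probesets tested and -0.71 for the same genes in SNc WT against VTA WT.

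**Figure D2:**
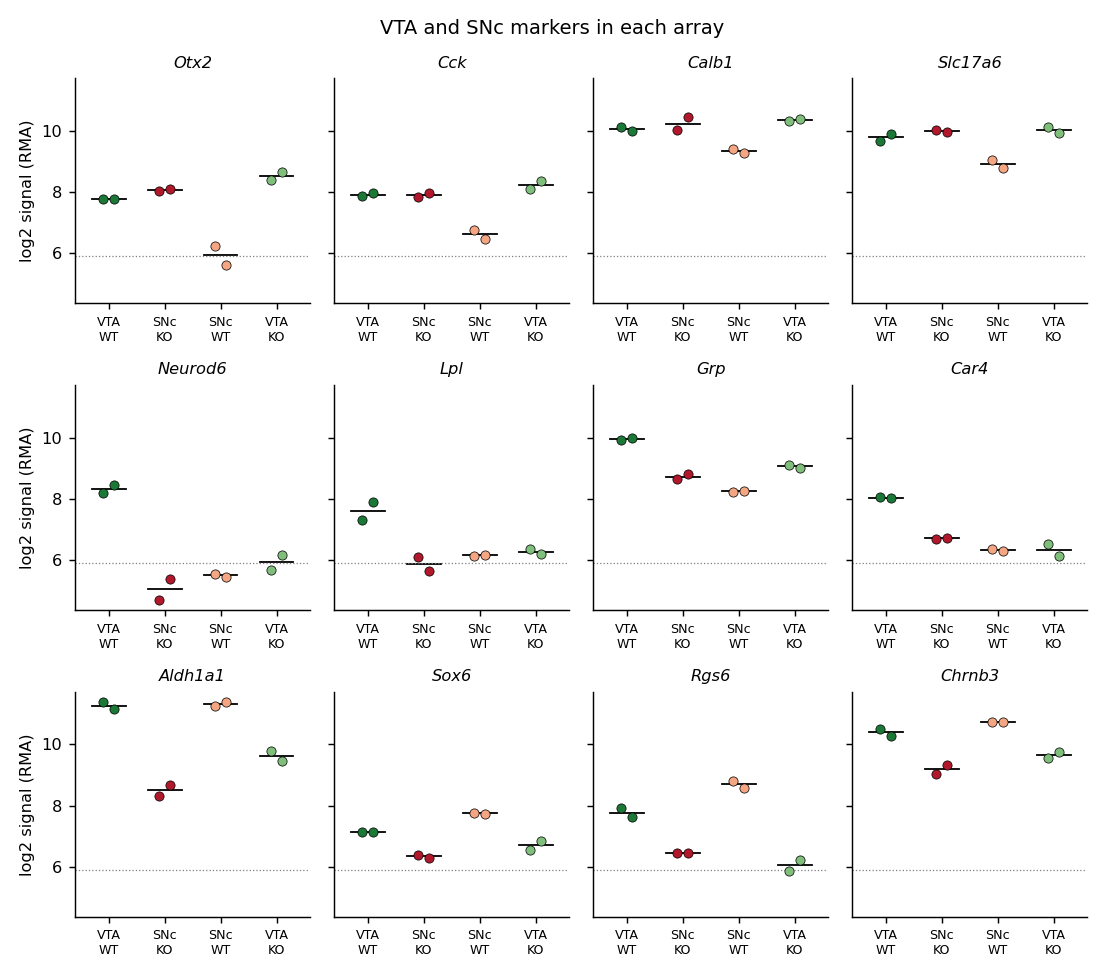
Log2 signal of 12 VTA and SNc markers, with a point for each array, a bar for the mean of the 2 arrays of a group and a dotted line at the signal minimum. Otx2, Cck, Calb1 and Slc17a6 have VTA-like levels in SNc KO, while Neurod6, Lpl, Grp, Car4, Aldh1a1, Sox6, Rgs6 and Chrnb3 lie below both VTA WT arrays.

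Some markers of the SNc and its ventral part were also lower in SNc KO than in VTA WT, although these are the sorted cells of the SNc dissection. Aldh1a1, the retinaldehyde dehydrogenase, read 11.38 and 11.16 in VTA WT, 11.26 and 11.38 in SNc WT, 9.78 and 9.45 in VTA KO and 8.33 and 8.69 in SNc KO. The wild-type regions overlapped, and the SNc KO arrays were the lowest of all 8 (difference from VTA WT -2.76 ± 0.18, adjusted p = 0.0118). Rgs6, which shortens signals of Gi/o-coupled receptors by speeding GTP hydrolysis, read 7.92 and 7.62 in VTA WT, 8.80 and 8.59 in SNc WT and 6.44 and 6.44 in SNc KO. Its difference from VTA WT was -1.33 ± 0.17 (adjusted p = 0.04). Rgs6 was the 1 called gene among 19 measured RGS proteins and partners, beside 0.362% of all probesets tested that were called lower. Chrna6 and Chrnb3, subunits of the nicotinic acetylcholine receptors of dopaminergic neurons, were both lower in SNc KO. Chrnb3 is on the list of SNc markers and Chrna6 is not. In Chrna6 the wild-type regions overlapped, with 9.28 and 9.34 in VTA WT and 9.34 and 9.34 in SNc WT. It read 8.09 and 8.33 in VTA KO and 7.15 and 7.87 in SNc KO. The difference of SNc KO from VTA WT was -1.80 ± 0.23 (adjusted p = 0.04). Chrnb3 read 10.51 and 10.28 in VTA WT and 9.02 and 9.34 in SNc KO. The difference was -1.21 ± 0.16 (adjusted p = 0.04). Anxa1, an annexin that binds phospholipids in the presence of calcium, read 6.93 and 6.77 in VTA WT and 4.58 and 5.13 in SNc KO (difference -1.99, adjusted p = 0.0322). It read 5.27 and 5.37 in SNc WT and 5.67 and 5.15 in VTA KO, and was thus over the minimum in VTA WT alone. The filter therefore fixed the direction of its difference.

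Sox6 read 7.15 and 7.14 in VTA WT and 6.39 and 6.30 in SNc KO, a log2 difference of -0.80 that did not pass (adjusted p = 0.0615). Kcnj6, the Girk2 potassium channel of ventral SNc neurons, read 7.04 and 7.01 in VTA WT and 7.0 and 6.77 in SNc KO, with an interval of the difference of -0.56 to 0.29. The median difference of the 20 measured SNc and ventral SNc markers was -0.37, with 0 called higher and 4 lower, beside 0.217% and 0.362% of all probesets tested. Without overlap 3 (15%) were higher and 14 (70%) lower, beside 30.7% and 27% of all probesets. The median of the same genes in SNc WT against VTA WT was 0.59. Of the 20, 2 (Anxa1 among them) were under the minimum in SNc KO and 0 in VTA WT, so the filter fixed the direction of these 2. Some genes of that list, picked after their values were seen, read higher in SNc KO than in VTA WT without passing. Lix1 read 8.39 and 8.57 in VTA WT and 9.16 and 9.30 in SNc KO (adjusted p = 0.101). Vav3 read 6.16 and 6.20 in VTA WT and 6.75 and 6.63 in SNc KO (adjusted p = 0.106).

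Most genes listed for the spared dorsal tier were higher in SNc KO than in VTA WT. Of 11 measured genes of that list 7 were called higher and 0 lower, beside 0.217% and 0.362% of all probesets tested. The median difference was 1.07. In the VTA of Pitx3-/- pups the list lay close to its level in SNc KO: its mean log2 signal was 8.03 and 7.99 in VTA WT, 8.73 and 8.76 in VTA KO, 8.84 and 8.96 in SNc KO and 7.49 and 7.39 in SNc WT. Its median difference was 0.72 between VTA KO and VTA WT and -0.06 between SNc KO and VTA KO. The list had been chosen with the values of SNc KO against SNc WT known, and the same SNc KO arrays enter here. Its count and median are therefore not independent evidence of its direction. Postn, the matrix protein periostin, read 6.95 and 6.95 in VTA WT, 8.58 and 8.80 in SNc KO, 7.51 and 7.67 in VTA KO and 5.52 and 5.33 in SNc WT. The 4 groups did not overlap, and the SNc KO arrays were the highest (difference from VTA WT 1.74 ± 0.13, adjusted p = 0.0118). Fst, the activin antagonist follistatin, read 6.97 and 6.95 in VTA WT, 8.03 and 8.09 in SNc KO and 8.44 and 8.44 in VTA KO. Here VTA KO was the highest group, and Fst was also called in VTA KO against VTA WT (difference 1.48, adjusted p = 0.0347) beside its difference of 1.10 ± 0.10 in SNc KO (adjusted p = 0.0173). Sulf1, an extracellular enzyme that trims sulfate from heparan sulfate, read 7.68 and 7.79 in VTA WT, 8.66 and 8.70 in SNc KO and 8.68 and 8.80 in VTA KO, so that the Pitx3-/- groups overlapped (difference from VTA WT 0.94, adjusted p = 0.0295). The potassium channel gene Kcnk9 behaved alike, with 9.01 and 9.31 in VTA WT, 10.31 and 10.16 in SNc KO and 10.48 and 10.28 in VTA KO (difference 1.07, adjusted p = 0.047).

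Several transcription factors rose in SNc KO relative to VTA WT. Tcf7l2, a nuclear partner of beta-catenin in Wnt signalling, read 7.55 and 7.38 in VTA WT, 8.15 and 7.74 in VTA KO, 9.15 and 9.27 in SNc WT and 9.62 and 9.74 in SNc KO. All 4 SNc arrays lay above all 4 VTA arrays, with a difference of 2.22 ± 0.16 between SNc KO and VTA WT (adjusted p = 0.0118) and of 1.73 between SNc KO and VTA KO (adjusted p = 0.0402). The LIM homeodomain factor Isl1 read 6.49 and 6.19 in VTA WT, 7.86 and 7.78 in SNc WT and 8.53 and 8.01 in SNc KO. The difference was 1.93 ± 0.25 (adjusted p = 0.04). Tfap2b, an AP-2 family factor, read 5.30 and 5.31 in VTA WT, under the minimum, and 7.20 and 7.98 in SNc KO. The difference was 2.28 ± 0.32 (adjusted p = 0.0477). Tfap2b was thus measured only through SNc KO, and the filter fixed the direction of its difference. Lhx9, also a LIM homeodomain factor, read 5.93 and 5.997 in VTA WT, 6.03 and 6.05 in VTA KO, 6.24 and 6.47 in SNc WT and 7.56 and 7.30 in SNc KO. SNc KO was the highest group, by 1.47 over VTA WT (adjusted p = 0.0174) and by 1.39 over VTA KO (adjusted p = 0.0402). Of 28 measured positional homeobox and Pax factors and factors of neighbouring nuclei, Tcf7l2 and Lhx9 were the 2 called, both higher. The share called higher over all probesets tested was 0.217%. The median of the list was 0.08.

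Neuropeptide genes diverged in both directions. Of 26 measured, 3 were called higher and 1 (Grp) lower, beside 0.217% and 0.362% of all probesets tested. The median was -0.03. Sst, somatostatin, read 8.34 and 8.13 in VTA WT, 9.52 and 9.66 in SNc WT and 10.41 and 10.28 in SNc KO. The difference was 2.11 ± 0.21 (adjusted p = 0.0193). Nts, neurotensin, read 7.12 and 7.10 in VTA WT, 5.46 and 6.08 in VTA KO and 8.78 and 9.12 in SNc KO. Of the groups given here, the VTA of Pitx3-/- pups was thus the lowest and their SNc the highest. The difference of SNc KO was 1.84 ± 0.22 from VTA WT (adjusted p = 0.0324) and 3.19 from VTA KO (adjusted p = 0.0402). Gal, galanin, showed the same order of these groups, with 6.92 and 6.999 in VTA WT, 6.12 and 6.64 in VTA KO and 8.78 and 8.68 in SNc KO. Its differences were 1.77 from VTA WT (adjusted p = 0.0295) and 2.35 from VTA KO (adjusted p = 0.0402). Tac1, the precursor of substance P, read 7.47 and 8.14 in VTA WT and 9.46 and 9.98 in SNc KO, a difference of 1.92 that did not pass (adjusted p = 0.0934).

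Further called genes encode signals, receptors, channels and contact proteins of neurons. Fgf10, a secreted fibroblast growth factor, read 6.68 and 6.34 in VTA WT, 6.41 and 6.16 in SNc WT, 8.18 and 8.18 in VTA KO and 8.14 and 8.38 in SNc KO. Both Pitx3-/- groups lay above both wild-type groups, and the difference from VTA WT was 1.75 ± 0.17 (adjusted p = 0.0174). Among 52 measured transmitter receptors 3 were called higher and 2 (Chrna6 and Chrnb3) lower, beside 0.217% and 0.362% of all probesets tested. The median was 0.25. Grm8, a metabotropic glutamate receptor that is also on the dorsal tier list, read 6.86 and 7.01 in VTA WT and 8.32 and 8.33 in SNc KO. The difference was 1.39 (adjusted p = 0.0118). Grin2a, a subunit of NMDA receptors, read 6.53 and 6.51 in VTA WT and 7.62 and 7.69 in SNc KO. The difference was 1.13 (adjusted p = 0.0274). Htr2a, a serotonin receptor, read 6.90 and 7.01 in VTA WT and 7.97 and 7.96 in SNc KO. The difference was 1.01 (adjusted p = 0.04). Grm8, Grin2a and Htr2a also read higher in VTA KO than in VTA WT, by 1.22, 0.70 and 0.999, and none passed (adjusted p of 0.0513, 0.19 and 0.128).

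Over all probesets tested, 0.217% were called higher and 0.362% lower. Among 55 measured ion channels of pacemaking and excitability, Kcnk9 and the cation channel Trpc5 were called higher and 0 lower (median 0.17). Trpc5 read 7.42 and 7.57 in VTA WT, 8.83 and 8.84 in SNc KO and 9.13 and 8.85 in VTA KO (difference from VTA WT 1.34, adjusted p = 0.0218). The synaptic organizers Nxph1, a ligand of neurexins, and Cbln1, which links neurexins to glutamate receptors of the delta type, were 2 of 43 measured genes of that list to be called, both higher (median 0.31). Nxph1 read 7.35 and 7.40 in VTA WT and 8.70 and 8.97 in SNc KO. The difference was 1.46 (adjusted p = 0.0149). Cbln1 read 9.23 and 8.93 in VTA WT and 10.31 and 10.28 in SNc KO. The difference was 1.21 (adjusted p = 0.0381). The cell adhesion gene Cdh7 (0.97, adjusted p = 0.0236), the secreted matrix protein Reln (1.06, adjusted p = 0.0262), the synaptic vesicle protein Syn2 (0.80, adjusted p = 0.043) and the vesicular GABA transporter Slc32a1 (1.0, adjusted p = 0.0324) were higher in SNc KO as well. Slc32a1 read 8.18 and 8.14 in VTA WT and 9.08 and 9.23 in SNc KO, and the GABA-synthesizing enzyme Gad1 read 6.18 and 6.19 in VTA WT and 7.62 and 7.12 in SNc KO without passing (adjusted p = 0.0806). Among the largest called differences were also the protease-like Prss35 (2.14), the Rab27-binding Sytl5 (1.63), the heparan sulfate sulfotransferase Ndst4 (1.59) and the secreted Cthrc1 (1.55), with adjusted p-values of 0.0481, 0.0262, 0.0382 and 0.0295.

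**Figure D3:**
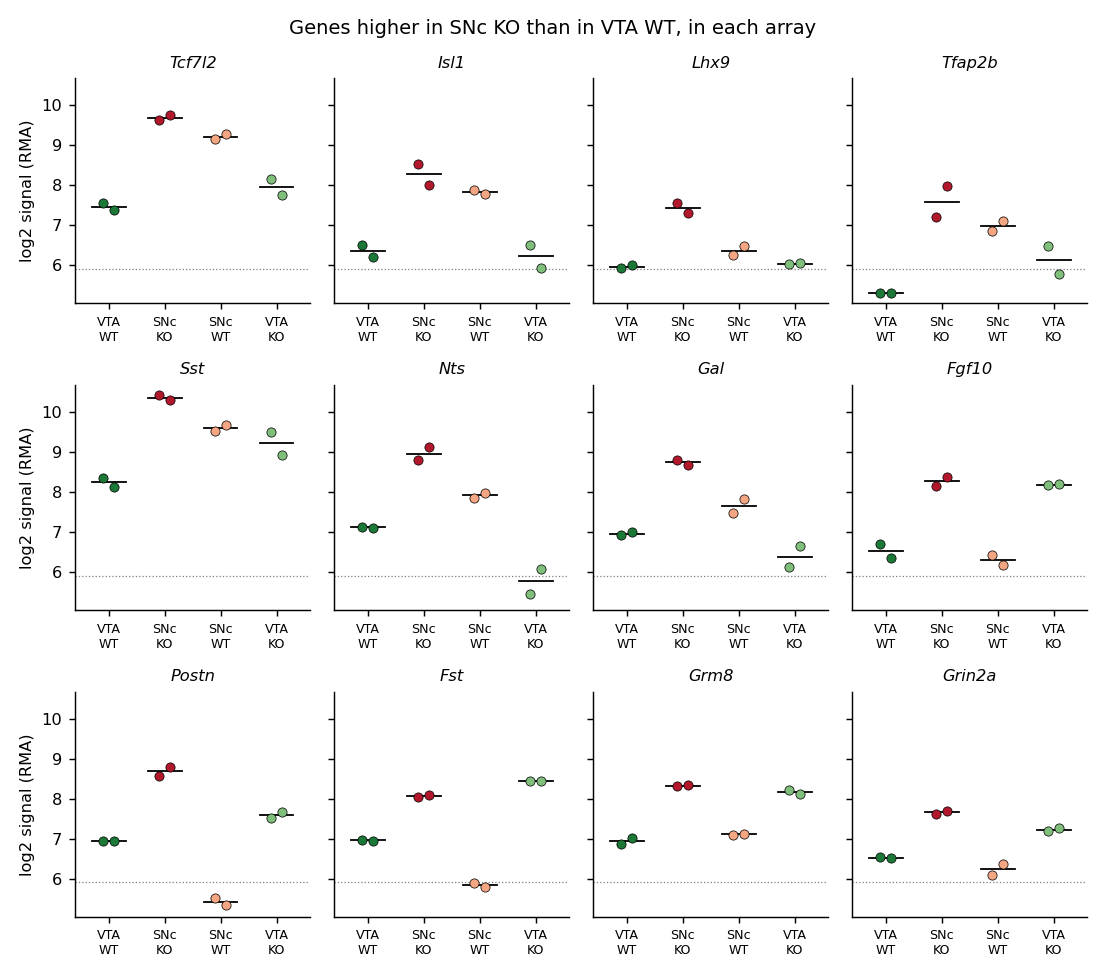
Log2 signal of 12 genes called higher in SNc KO than in VTA WT, with a point for each array, a bar for the mean of the 2 arrays of a group and a dotted line at the signal minimum. Tcf7l2 and Isl1 are high in the SNc of both genotypes, Fgf10, Fst and Grm8 in both regions of the Pitx3-/- pups, and Lhx9, Nts, Gal and Postn are highest in SNc KO.

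Genes of motile cilia, the beating axonemes of ependymal cells, were among the largest falls. Of the 36 measured ciliated and ependymal cell markers, 9 were called lower and 0 higher, beside 0.362% and 0.217% of all probesets tested. The median difference was -1.62. In SNc KO 35 (97.2%) lay lower without overlap, beside 27% of all probesets. At their probeset of highest mean, 18 of the 36 were under the minimum in SNc KO and 0 in VTA WT. Many of them were thus measured only through VTA WT, and for these the filter fixed the direction of the difference. Dynlrb2, a dynein light chain, read 8.89 and 9.20 in VTA WT and 5.59 and 5.20 in SNc KO. The difference was -3.65 ± 0.23 (adjusted p = 0.0118). Mns1, an axonemal protein, read 9.15 and 8.85 in VTA WT and 6.61 and 6.47 in SNc KO. The difference was -2.46 (adjusted p = 0.0118). Enkur, which binds TRPC channels in sperm and cilia, read 9.57 and 9.30 in VTA WT and 6.67 and 6.88 in SNc KO. The difference was -2.66 (adjusted p = 0.0118). Foxj1, the transcription factor that switches on motile cilium genes and is named here for that role, read 6.35 and 6.30 in VTA WT and 5.82 and 6.01 in SNc KO, a difference of -0.41 that did not pass (adjusted p = 0.179). Of the 69 genes called lower, 12 are on this list (Dnah3, Dnah6 and Spef2 through a probeset other than that of highest mean). In a count made after the values were seen, 20 are on it or carry the symbol of a dynein, dynein regulatory complex, sperm flagellar or cilia- and flagella-associated protein. Among the largest falls of all were Fam216b (-4.05), Capsl (-3.94), Mia (-3.62), Pifo (-3.52), Calml4 (-3.47) and Cfap43 (-3.06), with adjusted p-values of 0.043, 0.0118, 0.0118, 0.0174, 0.00962 and 0.0118. Ccdc81, Tmem212, Ak7, Ccdc113, Tm4sf1, Rarres2 and Lrriq1 fell by log2 differences of -2.89, -2.78, -2.77, -2.74, -2.67, -1.71 and -1.54, and each passed (adjusted p of 0.0315, 0.043, 0.0174, 0.0228, 0.0118, 0.0327 and 0.0118).

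The summed linear signal of the 36 ciliated and ependymal markers was 10233 and 12535 in the VTA WT arrays, 4814 to 7994 in VTA KO, 2991 to 3126 in SNc WT and 3288 to 3334 in SNc KO. The 2 SNc groups were thus close to each other, and the VTA WT arrays stood above all others. The median difference of the list was -1.56 in SNc WT against VTA WT, 0.07 in SNc KO against SNc WT, -0.77 in SNc KO against VTA KO and -0.87 in VTA KO against VTA WT. In such bulk samples, fewer cells of a type and less RNA per cell cannot be told apart. Of 16 measured astrocyte and radial glia markers 0 were called and the median was -0.47. In this list 11 (68.8%) were lower without overlap, beside 27% of all probesets. Of the 16, 3 (S100b and Aqp4 among them) were under the minimum in SNc KO and 0 in VTA WT. For these 3 the filter fixed the direction of the difference. Its summed signal was 6643 to 7162 in VTA WT and 5000 to 5167 in SNc KO. The gap junction gene Gja1 read 8.95 and 8.28 in VTA WT and 6.51 and 6.68 in SNc KO. S100b read 7.32 and 7.52 in VTA WT and 5.52 and 6.15 in SNc KO. The water channel gene Aqp4, picked as a defining astrocyte marker after its values were seen, read 6.34 and 5.82 in VTA WT and 5.65 and 5.75 in SNc KO. None of the 3 passed (adjusted p of 0.145, 0.147 and 0.382). The part of ciliated and glial cells in the genes called lower was not tested.

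For a view of the regulatory sequence of these genes, the 100 bases before the RefSeq transcription start are printed for 3 of them (GRCm38.p6), chosen because the window holds the letters GTTGCC of the X-box core, a sequence read by RFX factors of ciliated cells, in capitals on either strand.
Dynlrb2, chr8:116504915-116505014, plus strand: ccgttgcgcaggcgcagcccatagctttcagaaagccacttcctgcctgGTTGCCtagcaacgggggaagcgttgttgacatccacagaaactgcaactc
Mns1, chr9:72438429-72438528, plus strand: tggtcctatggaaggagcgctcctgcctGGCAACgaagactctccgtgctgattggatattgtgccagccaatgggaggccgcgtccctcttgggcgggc
Enkur, chr2:21205366-21205465, minus strand: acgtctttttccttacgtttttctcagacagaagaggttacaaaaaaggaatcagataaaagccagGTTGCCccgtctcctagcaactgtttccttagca
Tcf7l2 further start, chr19:55895221-55895320, plus strand: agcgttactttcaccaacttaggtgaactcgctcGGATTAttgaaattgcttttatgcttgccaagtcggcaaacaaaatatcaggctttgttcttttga
Over windows of 250 bases before the start, GTTGCC or its reverse complement was found in 15 of 67 windows (22.4%) of the genes called lower, in 11 of 30 windows (36.7%) of the measured ciliated and ependymal markers, in 3 of 48 windows (6.25%) of the genes called higher, in 10.8% of the windows of all genes measured here and in 10.4% of all RefSeq windows. RefSeq windows were found for 89 of the 109 called genes, some with more than 1 start. The core TAATCC, read by bicoid-class homeodomain factors such as Pitx3 and Otx2, was in 3 windows (6.25%) of the genes called higher and 4 windows (5.97%) of those called lower, beside 5.24% of the windows of measured genes. A further start of Tcf7l2 is among the 3, and its window is printed last with the core in capitals. The Nr4a site AAAGGTCA was in 0 windows of the genes called higher, 3 windows (4.48%) of those called lower and 0.941% of the windows of measured genes. None of the 3 motifs contains another, and each was searched on both strands. A match in these letters is a description and no evidence of binding.

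**Figure D4:**
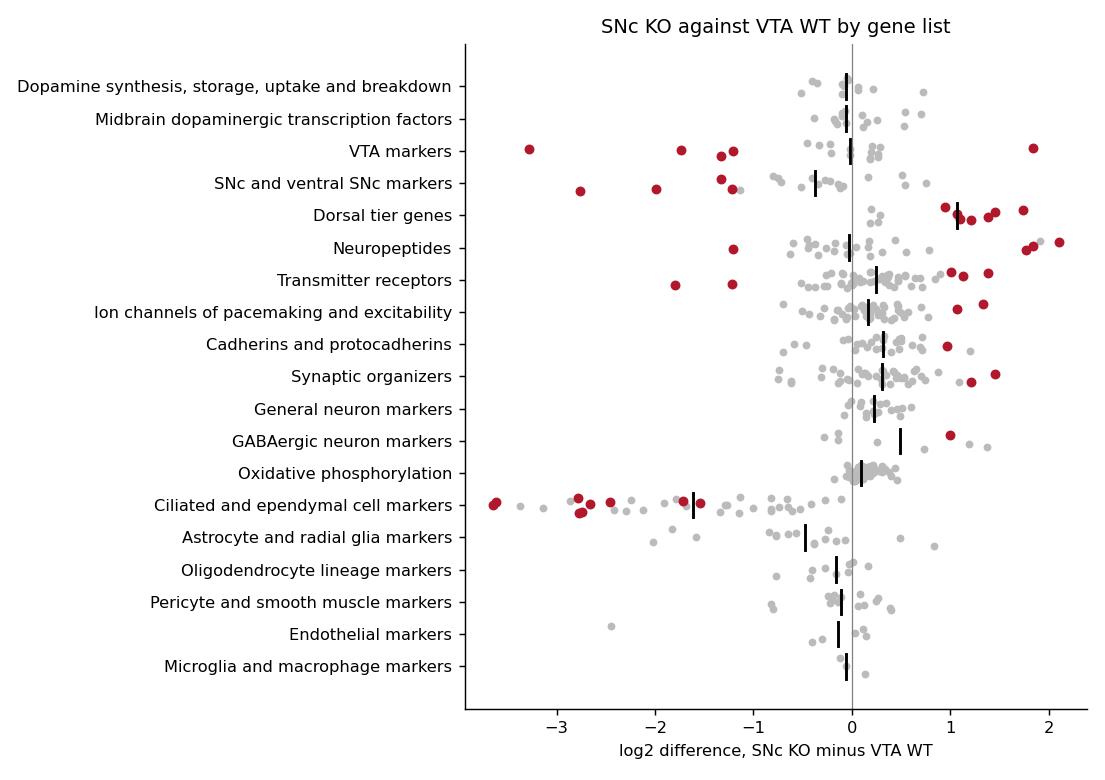
Each point is a measured gene of a list, at its log2 difference of SNc KO minus VTA WT on the horizontal axis, in red where the adjusted p was under 0.05, and the black bars are the list medians. The medians lie at -1.62 for ciliated and ependymal markers, -0.37 for SNc and ventral SNc markers and 1.07 for dorsal tier genes, and close to 0 for dopamine genes. The dorsal tier list had been chosen with values of these SNc KO arrays known.

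Lists of other cells and cell states held few or no called genes. Of 8 measured GABAergic neuron markers 1 (Slc32a1) and of 4 measured glutamatergic neuron markers 1 (Lhx9) were called, both higher, with summed signals of 1630 to 1851 and of 1306 to 1376 in SNc KO against 1144 to 1153 and 1030 to 1165 in VTA WT. The part of such neurons in the genes called higher was not tested. General neuron markers had 0 of 18 called and a median of 0.22. Oligodendrocyte, pericyte, endothelial, microglia and dividing cell markers had 0 called each, with medians from -0.16 to -0.02. Endothelial markers had a summed signal of 808 to 911 in VTA WT and 453 to 454 in SNc KO. Of the 6, 3 were lower without overlap (50%, beside 27% of all probesets), and 3 had a positive difference. The filter fixed the direction of 2 of the 6, which were under the minimum in SNc KO, and 0 were under it in VTA WT. Slc2a1 read lower by -2.45 (adjusted p = 0.0607), whereas the others ran from -0.40 to 0.14, so the sum does not show a fall of the list as a whole. Oligodendrocyte markers summed to 772 to 807 in VTA WT and 657 to 713 in SNc KO, and 5 of 9 (55.6%) were lower without overlap and 0 higher, beside 27% of all probesets lower. Of these 9, 1 was under the minimum in SNc KO and 1 in VTA WT, and for these the filter fixed the direction. The summed signals of pericyte, microglia and dividing cell markers overlapped between SNc KO and VTA WT. No gene was called in the red blood cell, serotonergic and noradrenergic, and sex-linked lists, with 1, 3 and 7 genes measured. The lists of oxidative phosphorylation (72 measured), axon guidance (49), immediate early and stress genes (27), neuropeptide receptors (23), apoptosis and p53 response (19), calcium-binding proteins (16) and familial Parkinson disease genes (12) had 0 called as well. Their medians were 0.09, 0.13, -0.13, 0.10, 0.05, 0.14 and 0.09 in that order. Of the remaining lists, 1 of 12 retinoic acid pathway genes (Aldh1a1) was called lower, and 2 of 44 growth and neurotrophic factors and receptors (Fgf10 and Fst), 3 of 41 extracellular matrix genes (Postn, Sulf1 and Reln), 1 of 42 synaptic vesicle genes (Syn2) and 1 of 9 glutamate and GABA co-transmission genes (Slc32a1) were called higher. Over all probesets tested, 0.217% were called higher and 0.362% lower. In several lists more genes read higher in SNc KO without overlap than the 30.7% of all probesets. The share was 74.1% of 27 cadherins and protocadherins (median 0.32, Cdh7 alone called), 66.7% of general neuron markers, 61.8% of ion channels, 60.5% of synaptic organizers, 55.8% of transmitter receptors and 51.4% of oxidative phosphorylation genes. These shares take 1 measured probeset for each gene, whereas the 30.7% and 27% cover all 22112 probesets tested, also those without a symbol. The sets are thus unlike, with a median difference of 0.0577 in measured probesets and 0.0200 in all tested. Called genes outside the lists that were picked after their values were seen include the metallothioneins Mt1 (-1.15) and Mt2 (-2.37), the chemokine receptor Cxcr4 (-1.16) and the transcription factor Nfix (-1.44) among those lower, and the zinc finger factor Bcl11a (0.91) and the splicing regulator Rbfox1 (0.98) among those higher.

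The other comparisons of these arrays bear on how region and genotype enter. Within Pitx3-/-, SNc KO against VTA KO gave 9 probesets higher and 24 lower, 0.149% of those tested, and VTA KO against VTA WT gave 2 higher and 0 lower, 0.00904% (2263 at an unadjusted p under 0.05). SNc WT against VTA WT gave 18 higher and 79 lower, 0.439%, and SNc KO against SNc WT gave 16 higher and 17 lower, also 0.149%. Counts changed with a library left out: SNc KO against VTA KO gave 0 calls without any array but VTA KO replicate 2, without which it gave 1328, and SNc WT against VTA WT gave 0 to 12 without an array other than VTA KO and 443 without either VTA KO array. These comparisons share arrays with that of SNc KO and VTA WT, so their values for a gene are not independent of it. The difference between the region effects of the 2 genotypes called 0 probesets, or 0%, in limma (2186 at an unadjusted p under 0.05), and 13 when VTA KO replicate 1 was left out.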

How the data were processed

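The groups, with 2 arrays each, were taken from the labels. The authors deposited a table of log2 signals, for which the submitters' processing notes name RMA, a method that corrects, normalizes and summarises probes. Neither its version nor a genome build is stated in the sources used here. An array yields no molecule count, and the number of arrays limits the precision. Of 35512 probesets, 21789 have 1 gene symbol in the platform annotation, 1621 several and 12102 none. Gene IDs of 21698 were found in a RefSeq table of GRCm38.p6, and 0 symbols changed.

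A model with a mean for each of the 4 groups was fitted to all 8 arrays in limma 3.58.1 (R 4.3.3), with 4 residual and 2.40 prior degrees of freedom. It held the 22112 probesets whose linear signal averaged 60 or more in any group. P-values were adjusted by the Benjamini-Hochberg method for each comparison, with a threshold of 0.05. Intervals are at 95%. Each gene was given by its probeset of highest mean. The genes to name were the 15 largest rises and 15 largest falls among called genes whose arrays did not overlap, called genes and the 4 largest differences of each of 37 lists (1002 genes, 775 measured), and known subtype markers. The text describes the first and a part of the others, and states exceptions. The members and lists were chosen with earlier results of these data known. Alternatives covered the arrays, filter, scaling, variance model, replicate block and the thresholds of the methods. Promoter sequences came from RefSeq.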

Additional observations from a re-analysis of the deposited data

How the results depend on the processing

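With 2 arrays a group, the number of calls depended on each array. In SNc KO against VTA WT, 128 probesets were called, 51 without a filter on signal, 668 with array weights, 1437 at the thresholds of the methods (unadjusted p up to 0.05 and 1.5-fold) and 0 to 428 when an array was left out. All 128 kept their sign with an array left out and with another scaling. The count was 109 in a fit of the 4 arrays of SNc KO and VTA WT alone, of which 59 were among the 128. In SNc WT against VTA WT, 97 probesets were called, 62 without the filter, 847 with array weights, 1464 at the thresholds of the methods and 0 to 443 with an array left out. In SNc KO against VTA KO, 33 were called, 0 without the filter, 0 with array weights, 0 with the replicate block, 1540 at the thresholds of the methods and 0 to 1328 with an array left out. The difference between the region effects called 0, and 0 to 13 with an array left out. The mean spread of the differences between SNc KO and VTA WT arrays was 0.486, and 0.472 without the non-neuronal markers, an alternative chosen after seeing the data. Causes of these changes were not tested. Arrays with the same replicate number deviated together only weakly (correlations of 0.00577 to 0.0980), which does not settle whether the numbers pair them. With the replicate block, 87 probesets were called in SNc KO against VTA WT, of which 70 were among the 128.

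Of the 79 genes given with values, 57 were called, of which 55 stayed called after array medians were subtracted, 42 after quantile normalization, 36 with the replicate block and 25 without the filter. Subtracting array medians raised every difference by 0.0983. Differences near 0 turned in sign. With medians subtracted they were 0.0836 for Cck, 0.00132 for Ddc, 0.00257 for Nr4a2, 0.0323 for Pitx3 and 0.0537 for Th. With an array left out they ran from -0.0140 to 0.383 for Calb1, -0.0870 to 0.0576 for Cck, -0.210 to 0.0165 for Ddc, -0.197 to 0.0648 for Pitx3 and -0.125 to 0.0355 for Th. A group left with 1 array was assumed to vary like the others. Levels under the minimum of 60 were not treated as bounds, since these values carry no detection call.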
